A study of Mus musculus with 2 samples.

Results

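The cell cycle genes described here are 60 genes that copy DNA, drive mitosis or set the pace of division, and were taken as a fixed list of gene symbols. The list was chosen with earlier results of these data known. They are 17 replication genes, 17 mitosis genes, 12 cyclins and cyclin-dependent kinases (CDKs), 6 CDK inhibitors and 8 genes of the RB, E2F, MYBL2 and FOXM1 regulators. A gene was taken as measured where at least 1 probe set of the array carried its symbol and no other. This held for 58 of the 60 listed genes and for 19938 genes in all. The cyclin B1 gene *Ccnb1* and the CDK inhibitor gene *Cdkn1a* have no such probe set.

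Affymetrix mouse gene arrays were hybridised with RNA of whole pancreas from WT and *Mafk*-Tg mouse embryos at E15.5 (days of embryonic development), and each genotype has 1 array. The *Mafk*-Tg embryos carry a cDNA of mouse MafK, a small MAF transcription factor, with a FLAG tag and under the rat insulin I promoter. Transgenic mice were made from BDF1 eggs and kept on the ICR background, which the WT embryos share. The labels give 3 pancreata per genotype, without saying whether they were pooled for the array. The promoter drives the transgene in β-cells, a small part of the organ, while the arrays read RNA of the whole organ. Changes of dividing β-cells alone are thus not measured. In such bulk RNA, fewer cells in cycle and less RNA per cell cannot be told apart.

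Values are log2 array values. A difference is always the *Mafk*-Tg value minus the WT value of the same gene on the log2 scale, and 1.2-fold corresponds to 0.263. No array has a replicate, so no difference was tested and none has an error. As a yardstick, the robust SD (the scaled median absolute deviation) of the differences was 0.15 over genes whose mean level reaches the median of all probe sets and 0.24 over dimmer genes. This spread mixes noise with real differences between the arrays. Levels of different genes are not compared, since each probe set has its own brightness.

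A dividing cell first licenses its replication origins. ORC, CDC6 and CDT1 load the MCM2-7 ring onto DNA, and CDC45 and the GINS complex turn that ring into the active helicase in S phase. D cyclins with CDK4 or CDK6 and E cyclins with CDK2 phosphorylate the RB proteins, which releases E2F factors that switch on replication genes. A later wave of mitosis genes is switched on by MYBL2 and FOXM1, which join the MuvB complex at promoters with a CHR element (cell cycle genes homology region) and CCAAT boxes. CDK inhibitors oppose the kinases. In the mouse pancreas E15.5 falls within the secondary transition, when progenitors divide and the exocrine and endocrine lineages expand.

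The 2 arrays had medians of 6.01 and 6.01 and correlated with a Pearson r of 0.987 over probe sets, which are not independent replicates. *Mafk* itself read 6.75 in WT and was higher by 0.25 in *Mafk*-Tg, under 1.2-fold. Pancreatic genes lay well above the array medians, with *Cpa1*, an acinar carboxypeptidase, at 13.48 and 13.51, and *Gcg*, the glucagon gene, at 11.68 and 11.96 in WT and *Mafk*-Tg. The female-specific RNA *Xist* differed by 6.90, and *Uty* and *Kdm5d*, which are Y-linked, by -4.67 and -3.93. Genotype and the sex of the embryos therefore cannot be told apart. All members lie on autosomes.

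Most cell cycle genes were slightly lower in the *Mafk*-Tg pancreas, and few by much. Of the 58 measured genes, 47 (81.0%) had a difference below 0, where 51.6% of all genes did. Their median was -0.09, beside -0.01 over all genes, and they ranged from -0.46 for the transcription factor gene *Mybl2* to 0.18 for the topoisomerase gene *Top2a*. At 1.2-fold, 5 members (8.62%) were lower, which is under the 10.5% of all genes that were, and 0 were higher, against 7.96% of all genes. The 5 genes were *Mybl2*, *Cdc45*, *Kif18b*, *Cdca8* and *E2f2*. At the smaller cutoff of 1.1-fold, 22 members (37.9%) were lower and 3 (5.17%) higher, beside 25.7% and 20.8% of all genes. At 1.5-fold, 0 members passed in either direction, beside 1.27% of all genes lower and 0.697% higher.

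Level bears on such counts, because dim genes scatter more. Of the members, 56 reached the median level of all probe sets, and the 2 that did not were the CDK inhibitor genes *Cdkn2a* and *Cdkn2b*. Among these 56 members, 45 had a difference below 0, 5 were at least 1.2-fold lower and 0 higher. Over all 11412 genes of such a level, 51.4% had a difference below 0, 5.87% were at least 1.2-fold lower and 5.58% higher. The share of members below 0 lay above this background, and the share at least 1.2-fold lower, 8.93%, was nearer to it.

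**Figure D1:**
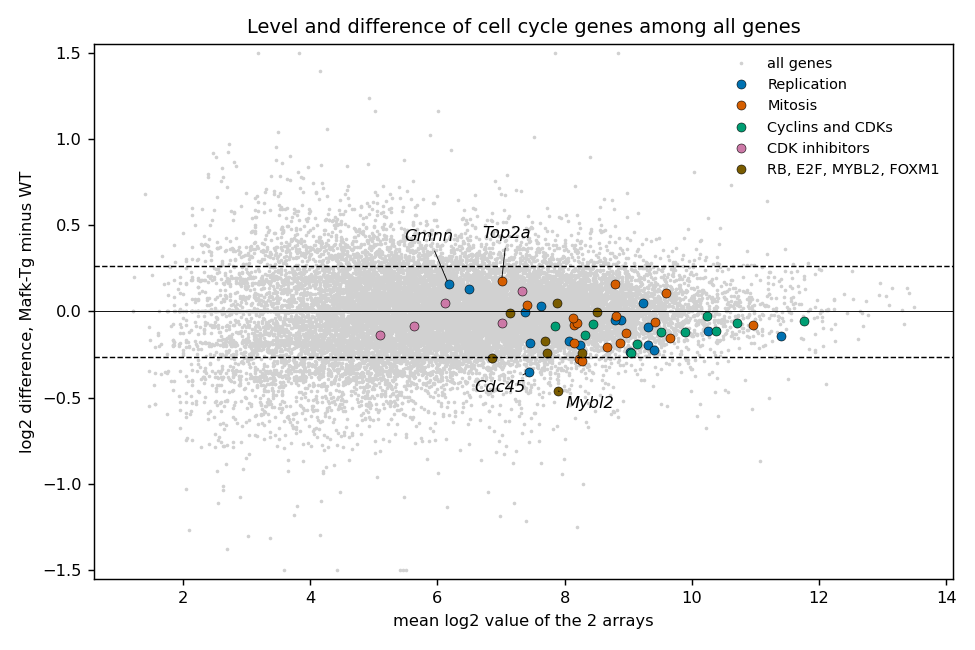
Each dot is 1 gene, with its mean log2 value over the 2 arrays on the x axis and its log2 difference, *Mafk*-Tg minus WT, on the y axis. Grey dots are all 19938 genes, with differences beyond 1.5 drawn at the edge, coloured dots are the 58 members by role, and dashed lines mark 1.2-fold. The members sit mostly at mid to high levels just under 0, with *Mybl2* lowest at -0.46.

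Most replication genes had slightly lower values. Of 17 genes, 13 had a difference below 0, beside 51.6% of all genes, and the median was -0.12. At 1.2-fold, 1 (5.88%) was lower and 0 higher. The lower share was 10.5% over all genes and 5.87% over genes at or above the median level. All 6 genes of the MCM2-7 ring were below 0, with a median of -0.19. *Mcm4* read 9.15 in WT and 8.91 in *Mafk*-Tg, or -0.24. *Mcm6* read 9.51 and 9.28, or -0.23. *Mcm2* read 9.41 and 9.22, or -0.20, and *Mcm3* 8.34 and 8.14, or -0.19. The smallest differences of the ring were those of *Mcm7*, with 9.36 and 9.27, and *Mcm5*, with 8.91 and 8.86. No MCM gene reached 1.2-fold.

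*Cdc45*, whose protein joins MCM2-7 and GINS in the replicative helicase, had the largest difference of the replication genes. It read 7.61 in WT and 7.26 in *Mafk*-Tg, or -0.35, and was 1.27-fold lower, where 1000 genes of similar level had a robust SD of 0.15. The GINS subunit genes that belong to the list hardly differed. *Gins1* had a difference of -0.0047 and *Gins2* of 0.03. The other subunit genes, *Gins3* and *Gins4*, had 0.26 and -0.15, so the helicase genes did not share a direction.

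The loading factors were split as well. *Cdt1*, which brings the MCM ring to origins, read 8.15 in WT and 7.98 in *Mafk*-Tg, or -0.17. *Cdc6*, its partner in loading, read 6.44 and 6.57, or 0.13, and *Gmnn*, which encodes the CDT1 inhibitor geminin, read 6.10 and 6.25, or 0.16, the highest value of the replication genes. The difference of *Gmnn* was smaller than the robust SD of 0.19 at its level. The 6 ORC genes, which are not members, had a median of 0.05, with 2 of 6 below 0.

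Genes of the fork and of nucleotide supply lay between -0.18 and 0.05. *Mcm10*, a replisome assembly factor, had -0.18. *Pcna*, the sliding clamp of the DNA polymerases, read 11.47 in WT and 11.33 in *Mafk*-Tg, or -0.15, in 2 probe sets with identical values that count as 1 measurement. *Rrm1* and *Rrm2*, the subunits of ribonucleotide reductase, had -0.12 and -0.05, and the thymidylate synthase gene *Tyms* had 0.05.

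**Figure D2:**
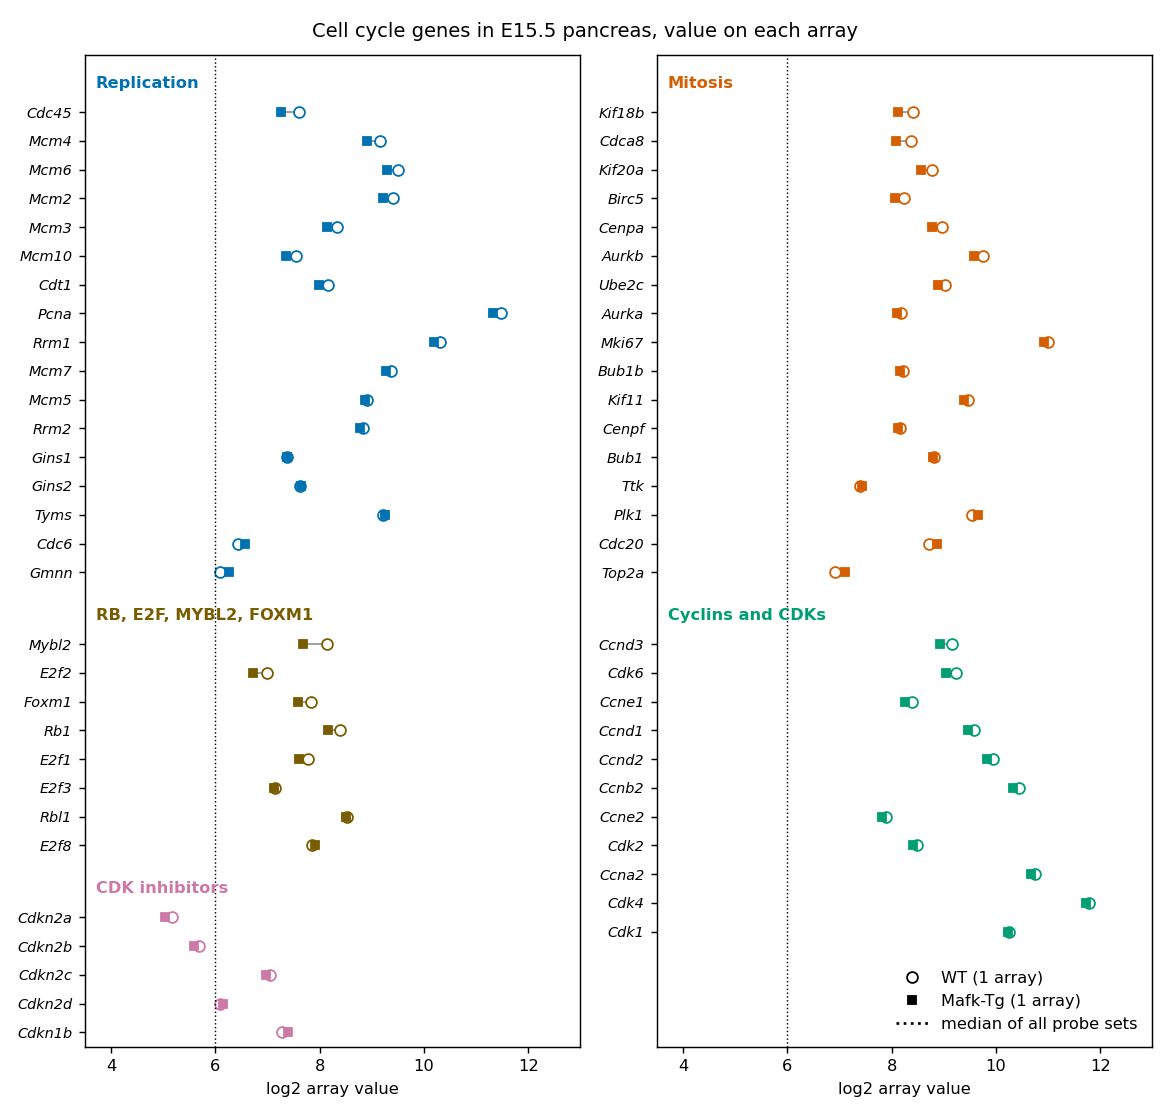
Log2 array value (x axis) of each of the 58 members in WT (open circles) and *Mafk*-Tg (filled squares), with 1 array per genotype, sorted by difference within each role. The dotted line is the median level of all probe sets. The square lies left of the circle for 47 genes, and the gap is widest for *Mybl2* and *Cdc45*.

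To show what the replication promoters hold, RefSeq promoter sequences (build GRCm38.p6) were searched for short words on either strand. The window held 250 bases before and 50 bases after each annotated start. Promoters were found for 48 of the 60 listed genes, 55 promoters in all. The E2F words TTTGGCGC, TTTCCCGC, TTTGCCGC and TTTCGCGC were present in 6 of 14 replication promoters (42.9%) and in 2.26% of all 32851 promoters. CCAAT was present in 78.6% of replication promoters and 37.4% of all. *Mcm3*, *Mcm5*, *Mcm6* and *Mcm7* each have a promoter with E2F words. The *Mcm2* promoter and another promoter of *Mcm7* hold none, and no promoter was found for *Mcm4*. The 150 bases before the start of *Mcm6* are shown as the member with most E2F words, and those of *Cdc45* as the replication gene with the largest difference. Capitals mark E2F words and CCAAT or its reverse ATTGG.
Mcm6 (chr1:128359706-128359855, - strand): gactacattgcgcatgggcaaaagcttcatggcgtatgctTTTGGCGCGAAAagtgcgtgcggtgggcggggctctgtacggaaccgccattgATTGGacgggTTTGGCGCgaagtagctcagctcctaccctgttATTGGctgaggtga
Cdc45 (chr16:18811973-18812122, - strand): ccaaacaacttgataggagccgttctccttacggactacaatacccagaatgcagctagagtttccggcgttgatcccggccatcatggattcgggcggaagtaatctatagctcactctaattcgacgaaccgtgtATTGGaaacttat
The *Mcm6* stretch holds E2F words that begin 110, 106 and 47 bases before the start, the first pair of them overlapping, and CCAAT words at 57 and 14. The *Cdc45* stretch holds 1 CCAAT word, 13 bases before the start, and no E2F word. A match is a run of letters and not a shown binding site.

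Most mitosis genes also had slightly lower values. Of 17 genes, 13 had a difference below 0, beside 51.6% of all genes, and the median was -0.08. At 1.2-fold, 2 (11.8%) were lower and 0 higher. The lower share was 10.5% over all genes and 5.87% over genes at or above the median level. *Mki67*, the proliferation marker that coats mitotic chromosomes, read 11.00 in WT and 10.92 in *Mafk*-Tg. Its difference of -0.08 was smaller than the robust SD of 0.13 over genes of similar level.

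The 2 mitosis genes past 1.2-fold were *Kif18b* and *Cdca8*. *Kif18b*, which encodes a kinesin of the plus ends of spindle microtubules, read 8.41 in WT and 8.12 in *Mafk*-Tg and was 1.22-fold lower. *Cdca8*, which encodes borealin, read 8.36 and 8.08 and was 1.21-fold lower, with a difference of -0.28. The robust SD at the level of either gene was 0.14. Borealin belongs to the chromosomal passenger complex, which corrects faulty attachments of chromosomes to the spindle, and its other members pointed the same way by less. The kinase gene *Aurkb* read 9.74 and 9.59, or -0.16, the survivin gene *Birc5* 8.24 and 8.06, or -0.18, and *Incenp*, which is not in the list, had -0.15. The median of the 4 was -0.17, for a complex picked out after the values had been seen. *Kif20a*, a kinesin gene of cytokinesis, had -0.21, and *Cenpa*, the histone H3 variant gene of centromeres, had -0.18.

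The remaining mitosis genes lay between -0.12 and 0.18. The checkpoint kinase genes *Bub1*, *Bub1b* and *Ttk* had differences of -0.02, -0.07 and 0.04. *Cdc20*, the activator of the anaphase-promoting complex, read 8.71 in WT and 8.87 in *Mafk*-Tg, or 0.16, whereas *Ube2c*, the ubiquitin-conjugating enzyme gene of that complex, had -0.12. The polo kinase gene *Plk1* read 9.54 and 9.65, or 0.10. *Aurka*, the spindle pole kinase, the kinetochore gene *Cenpf* and the spindle motor gene *Kif11* had -0.08, -0.04 and -0.06. *Top2a*, which untangles sister chromatids, had the highest difference of all members, 0.18. That value averages a bright probe set with 9.89 and 9.92 and one far below the median level with 3.95 and 4.27, and the bright probe set alone differed by 0.03.

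The mitosis promoters differ from the replication promoters in their letters. None of the 15 promoters matched holds 1 of the 4 E2F words, while the CHR word TTTGAA is present in 13 of 15 (86.7%), against 14.3% of replication promoters and 17.9% of all. The lack of E2F letters depends on the words chosen. A shorter E2F-like core, GGCGGGA, searched after the data had been seen, is in 33.3% of mitosis, 21.4% of replication and 11.3% of all promoters. CCAAT is present in 93.3% of mitosis promoters and 37.4% of all. CHR and CCAAT together are in 86.7% of mitosis promoters and 6.95% of all. Among promoters of further replication genes, which are described below and are not members, 26.7% hold an E2F word. Promoters of further mitosis genes hold CHR in 61.1% and an E2F word in 11.1%. Of the listed genes, *Mki67* and *Cdc20* are shown as mitosis genes near 0 and above it, and *Kif18b* and *Cdca8* as those past 1.2-fold. Capitals mark TTTGAA or its reverse TTCAAA, and CCAAT or its reverse ATTGG, in the 150 bases before the start.
Mki67 (chr7:135716380-135716529, - strand): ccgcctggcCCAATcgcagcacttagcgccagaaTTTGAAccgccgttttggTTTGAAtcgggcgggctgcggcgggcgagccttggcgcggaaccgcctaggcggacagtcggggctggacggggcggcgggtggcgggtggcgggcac
Cdc20 (chr4:118437344-118437493, - strand): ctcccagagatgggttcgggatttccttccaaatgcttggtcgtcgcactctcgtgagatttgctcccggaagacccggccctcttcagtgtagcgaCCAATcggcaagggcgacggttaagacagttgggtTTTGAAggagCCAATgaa
Kif18b (chr11:102925125-102925274, - strand): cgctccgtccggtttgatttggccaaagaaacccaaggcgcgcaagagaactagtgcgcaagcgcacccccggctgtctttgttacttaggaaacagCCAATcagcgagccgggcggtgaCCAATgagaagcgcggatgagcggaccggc
Cdca8 (chr4:124936918-124937067, - strand): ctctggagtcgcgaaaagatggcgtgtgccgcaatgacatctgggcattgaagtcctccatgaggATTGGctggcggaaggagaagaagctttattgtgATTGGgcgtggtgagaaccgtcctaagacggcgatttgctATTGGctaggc
*Mki67* holds CHR words at 116 and 98 bases and a CCAAT word at 141, and *Cdc20* holds a CHR word at 18 and CCAAT words at 53 and 8. *Kif18b* holds CCAAT words at 53 and 30 and *Cdca8* at 85, 51 and 11, with their CHR words outside the stretch shown. All 4 promoters hold both words within the 300-base window, in differing number and position. *Cdc20* differed by 0.16 and *Cdca8* by -0.28, and a link of letters to differences was not tested.

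**Figure D3:**
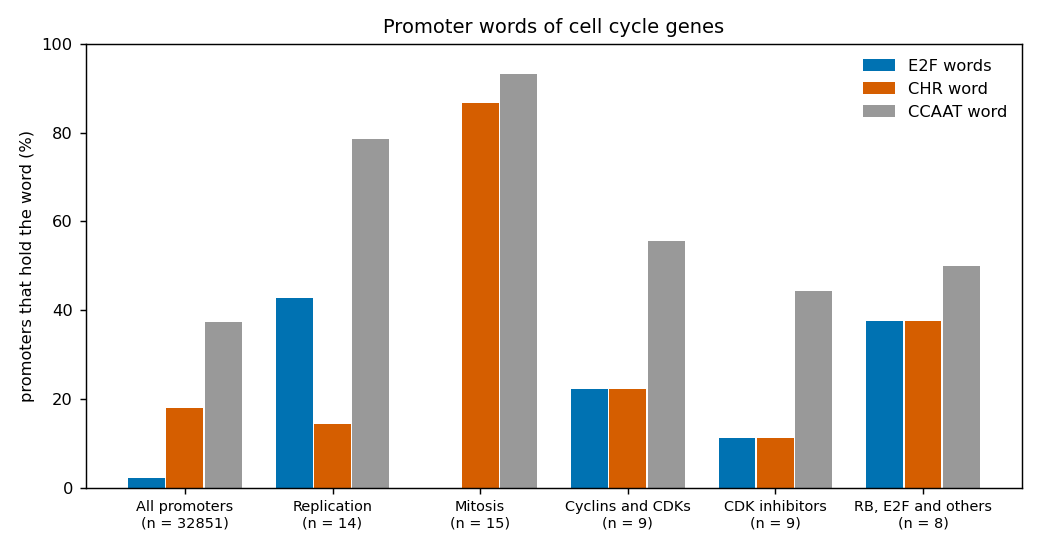
Share of promoters (y axis, percent) that hold an E2F word, the CHR word TTTGAA or CCAAT, for all 32851 RefSeq promoters and for the promoters of each role (x axis, with n promoters). E2F words are in 42.9% of replication promoters and in 37.5% of the 8 promoters of the RB, E2F and other regulators. CHR words are in 86.7% of mitosis promoters.

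The cyclins and CDKs shared a direction without reaching the cutoff. All 11 measured genes had a difference below 0, none was 1.2-fold lower, and the median was -0.12 with a range from -0.24 to -0.03. Of all genes, 51.6% were below 0 and 10.5% at least 1.2-fold lower, or 5.87% of those at or above the median level.

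D cyclins carry growth signals to CDK4 and CDK6, and *Ccnd3* had the largest difference of the cyclins. It read 9.17 in WT and 8.93 in *Mafk*-Tg, or -0.24. *Ccnd1* read 9.58 and 9.46, or -0.12, and *Ccnd2*, the D cyclin that β-cells depend on after birth, read 9.95 and 9.83, or -0.12. The E cyclin genes *Ccne1* and *Ccne2*, which start S phase with CDK2, read 8.39 and 8.25, or -0.14, and 7.89 and 7.81, or -0.08. The mitotic cyclin genes *Ccna2* and *Ccnb2* had -0.07 and -0.12. Among the kinases, *Cdk6* read 9.23 and 9.04, or -0.19, while *Cdk4*, the partner of cyclin D2 in β-cells, read 11.78 and 11.73, or -0.05. *Cdk2* had -0.07, and *Cdk1*, the kinase of mitotic entry, had -0.03 with 10.25 and 10.22.

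The CDK inhibitors had no common direction. Of the 5 measured genes, 3 had a difference below 0 and 2 above, none reached 1.2-fold, and the median was -0.07. Beside these counts, 51.6% of all genes were below 0, 10.5% at least 1.2-fold lower and 7.96% higher, so these few genes did not stand out. *Cdkn1b*, which encodes p27, read 7.27 in WT and 7.39 in *Mafk*-Tg, or 0.12, the highest of the group. Its 2 probe sets disagreed, with 8.33 and 8.32 in the brighter and 6.22 and 6.46 in the dimmer, so the difference rests on the dimmer. The INK4 genes, whose proteins bind CDK4 and CDK6, lay between -0.14 and 0.05, each by less than the robust SD at its level. *Cdkn2c* (p18) read 7.04 and 6.98, or -0.07, and *Cdkn2d* (p19) 6.09 and 6.14, or 0.05. *Cdkn2a*, which encodes p16 and the p53 activator ARF, read 5.16 and 5.03, or -0.14, and *Cdkn2b* (p15) 5.68 and 5.59, or -0.09. Both lie below the median level, and the robust SD at the level of *Cdkn2a* was 0.23.

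With those 2 dim genes left out the median of the group was 0.05, so its sign rests on which genes are counted. *Cdkn1a*, which encodes p21, was read only by a probe set shared with *4930567H12Rik*, with 7.52 in WT and 7.63 in *Mafk*-Tg. *Cdkn1c*, the imprinted p57 gene and no member of the list, read 9.71 and 9.91, a difference of 0.20 that is also under 1.2-fold.

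The RB, E2F, MYBL2 and FOXM1 regulators had the lowest median of the 5 roles, and included the lowest member, *Mybl2*. Of 8 genes, 7 had a difference below 0, beside 51.6% of all genes, and the median was -0.20. At 1.2-fold, 2 (25.0%) were lower and 0 higher. The lower share was 10.5% over all genes and 5.87% over those at or above the median level. In a list of 8 genes the 25.0% rests on 2 genes. *Mybl2*, which encodes the B-MYB factor of late S phase, read 8.13 in WT and 7.67 in *Mafk*-Tg. It was 1.38-fold lower, with a difference of -0.46 where genes of similar level had a robust SD of 0.15. *Foxm1*, which follows B-MYB on mitosis promoters, read 7.84 and 7.59, or -0.24, just inside the cutoff.

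The activating E2F genes were unequal. *E2f2* read 6.99 in WT and 6.72 in *Mafk*-Tg, or -0.27, barely past the cutoff, where the robust SD at its level was 0.17. *E2f1* read 7.77 and 7.60, or -0.17. *E2f3* had -0.0068, a mean of 2 probe sets of opposite sign, with 0.04 and -0.05. The repressor *E2f8* was the only gene of the group above 0, with 7.86 and 7.91, or 0.05. The pocket protein genes were split too, since *Rb1*, the retinoblastoma gene, read 8.39 and 8.15, or -0.24, and *Rbl1*, which encodes p107, had -0.0055. The 5 MuvB subunit genes, to which MYBL2 and FOXM1 proteins bind, had a median of -0.09 and a range from -0.18 for *Rbbp4* to 0.06 for *Lin54*.

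The promoters of the regulators past 1.2-fold are shown for their letters. Capitals mark CCAAT in *E2f2*, at the first of its annotated starts, and in *Mybl2* the E2F-like core GGCGGGA, which was searched only after this promoter had been seen.
Mybl2 (chr2:163054485-163054634, + strand): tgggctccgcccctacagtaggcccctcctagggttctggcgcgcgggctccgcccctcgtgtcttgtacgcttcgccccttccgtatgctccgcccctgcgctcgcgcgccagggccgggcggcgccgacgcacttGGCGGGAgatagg
E2f2 (chr4:136172124-136172273, + strand): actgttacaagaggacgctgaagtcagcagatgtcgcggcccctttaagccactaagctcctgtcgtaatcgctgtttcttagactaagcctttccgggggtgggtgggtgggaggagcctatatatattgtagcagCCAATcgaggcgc
*Mybl2* holds no word of the first search within the 300-base window, and its GGCGGGA lies 13 bases before the start, a core that is also in 11.3% of all promoters. *E2f2* holds CCAAT 13 bases before this start, and an E2F word outside the stretch shown.

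Members were also grouped by their promoter letters, with no test of the groups. The 12 measured genes with an E2F word in any promoter had a median difference of -0.08, with 11 below 0. The 20 with both CHR and CCAAT had -0.07, with 15 below 0, and the 16 with neither an E2F nor a CHR word had -0.13, with 13 below 0. The 1.2-fold lower genes numbered 1, 4 and 1 in these sets, where *E2f2* counts in the first and the second through different starts. Over all genes, 51.6% were below 0 and 10.5% were at least 1.2-fold lower.

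**Figure D4:**
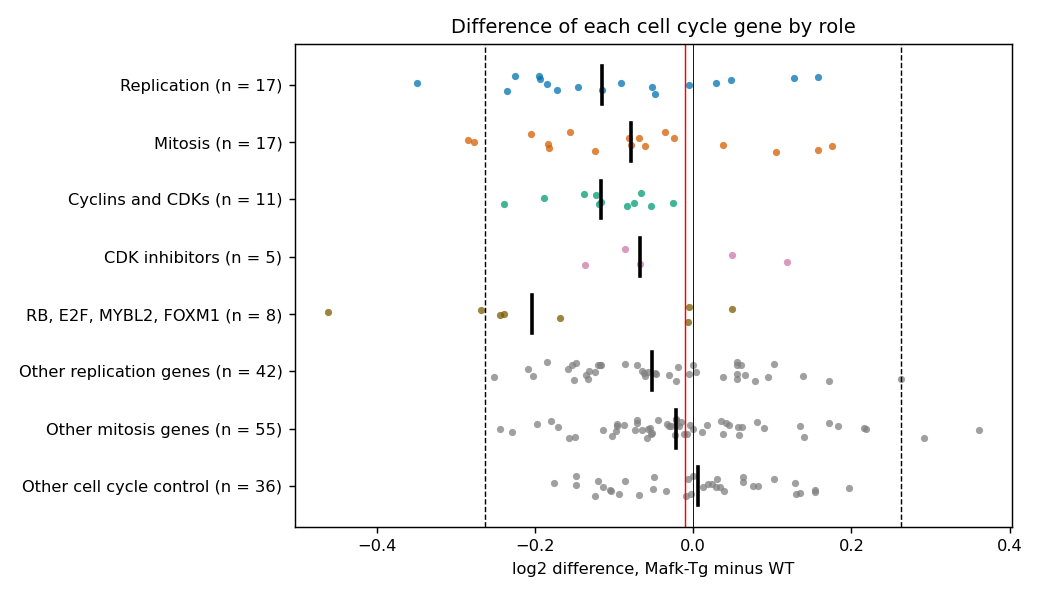
Log2 difference, *Mafk*-Tg minus WT (x axis), of each gene (dots) by role (y axis, with n genes), beside 3 lists of other cell cycle genes in grey. Black bars are list medians, the red line is the median of all genes, -0.01, and dashed lines mark 1.2-fold. The regulators reach furthest to the left, to -0.46, and the grey lists lie nearer to 0.

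The other genes of the pathway lay closer to the background of all genes. Of 136 further cell cycle genes, 133 were measured. Among them 79 (59.4%) had a difference below 0, 0 were at least 1.2-fold lower and 2 higher, and the median was -0.02. Over all genes, 51.6% were below 0, 10.5% at least 1.2-fold lower and 7.96% higher. The 42 other replication genes had a median of -0.05 and 64.3% below 0, with the DNA polymerase delta gene *Pold1* lowest at -0.25. The 55 other mitosis genes had a median of -0.02 and 63.6% below 0. Both genes past 1.2-fold were among these and higher, *Cenph*, a kinetochore subunit gene, with 6.56 in WT and 6.92 in *Mafk*-Tg, and *Cep55*, an abscission factor gene, with 7.16 and 7.45. The 36 other control genes had a median of 0.01, with 47.2% below 0. The share below 0 was thus 81.0% in the 58 listed genes and 59.4% in the other genes of the same pathway. Of the role and pathway lists the regulators had the median furthest from 0. All these lists were chosen with earlier results of these data known, so the contrast describes the lists and tests nothing.

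Markers of other cell types differed between the arrays by more than the cell cycle genes. Of 16 leukocyte markers, 14 were at least 1.2-fold lower and 0 higher, with a median difference of -0.61, and their median log2 value was 8.00 in WT and 7.35 in *Mafk*-Tg. Of 13 erythroid markers measured, 10 were lower and 2 higher, the embryonic globin genes *Hba-x* and *Hbb-y*, with a median of -0.44 and median values of 7.58 and 7.22. Blood cell precursors divide and also express cell cycle genes. The defining genes *Ptprc* and *Klf1* read 7.03 and 6.74, and 6.71 and 6.19 in WT and *Mafk*-Tg. Of 9 hepatocyte markers, 6 were lower and 1 higher, with a median of -0.47.

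Markers of mesenchyme, another dividing part of the embryonic pancreas, also had lower values. All 12 were below 0, with 3 at least 1.2-fold lower and a median of -0.20. For this and the next lists, the shares over all genes were 51.6% below 0, 10.5% at least 1.2-fold lower and 7.96% higher. The 6 endothelial markers had a median of -0.15. Most epithelial markers had differences above 0. The 10 acinar markers had a median of 0.25 with 3 higher, the 6 epithelial and duct markers a median of 0.14, and the 14 endocrine markers a median of 0.27 with 8 higher and 4 lower. The lower ones were the β-cell genes *Ins2*, *Slc30a8* and *G6pc2*, with -0.40, -0.54 and -1.13, and the general endocrine gene *Chga*, with -0.32. The acinar gene *Rnase1* had -0.16. The 8 reference genes measured had a median of 0.01. Cell proportions were not measured, and whether these marker differences bear on the lower cell cycle values was not tested.

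**Figure D5:**
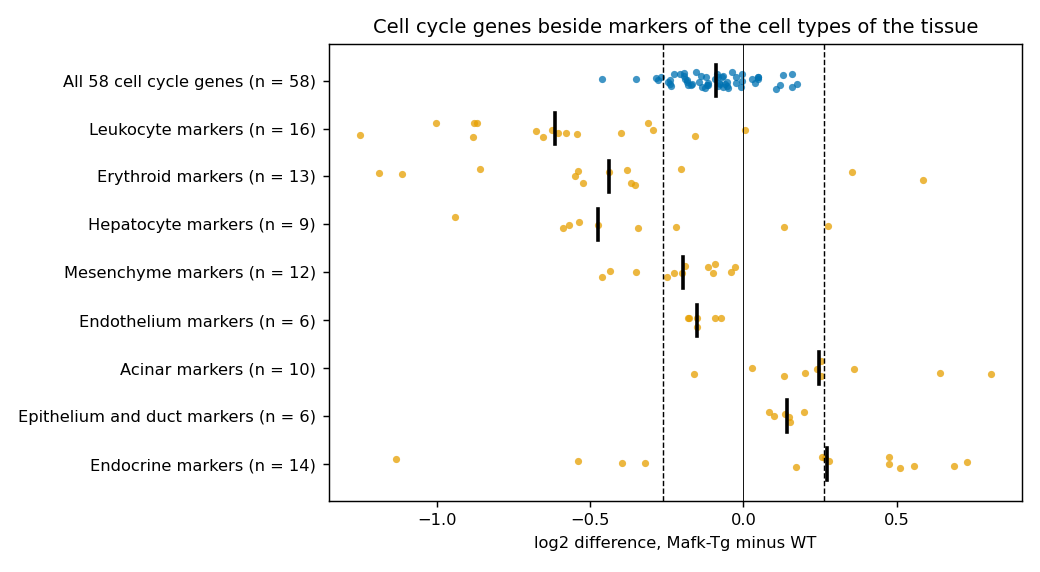
Log2 difference, *Mafk*-Tg minus WT (x axis), of the 58 cell cycle genes (blue) and of the markers of each cell type (orange, y axis with n genes measured). Black bars are medians and dashed lines mark 1.2-fold. The leukocyte, erythroid and hepatocyte medians, -0.61, -0.44 and -0.47, lie further below 0 than the -0.09 of the cell cycle genes, and the acinar and endocrine medians lie above 0.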

How the data were processed

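RNA of whole E15.5 pancreas of WT and *Mafk*-Tg embryos was measured on 1 Affymetrix array per genotype. The deposited values are on the log2 scale. They were normalized and summarized by the authors with Affymetrix Expression Console (version and algorithm: not given in the sources used here). RNA extraction was phenol-based per the labels, and by column kit in the study's methods. No scaling was added. Of 35556 probe sets, 21789 had 1 gene symbol in the platform's table, 1621 named several genes, and 12146 stay unnamed here. Probe sets of 1 symbol were averaged per gene. The study's cutoff of 1.2-fold was used and precision is limited by the number of arrays.

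The members and lists were chosen with earlier results of these data known. Named genes are members past 1.2-fold, the extremes of each role, every CDK inhibitor, D and E cyclin and MCM2-7 gene, *Mki67*, *Cdkn1c* and other pathway genes past 1.2-fold. Further genes were named to describe complexes, after their values had been seen.

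Alternatives were equal medians, quantile normalization, loess on the mean (span 0.3), the brightest probe set, probe sets of several symbols, dim genes left out, and cutoffs of 1.1-fold and 1.5-fold. The GGCGGGA search was added after seeing the data. Robust SDs are over the 1000 genes nearest in level. The steps on array values were also tested on simulated data. RefSeq promoters (GRCm38.p6) were matched by symbol and credited to RefSeq. The tools were numpy 2.4.6, statsmodels 0.14.6, pandas 2.3.3 and matplotlib 3.10.9 in Python 3.11.15.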

Additional observations from a re-analysis of the deposited data

How the results depend on the processing

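No paired analysis was possible because there is 1 array per genotype, and for the same reason no replicate could be left out. The 5 members at least 1.2-fold lower and 0 higher gave the same counts under each normalization and choice of probe sets. The counts depend on the cutoff, with 22 lower and 3 higher at 1.1-fold, and 0 lower at 1.5-fold. The median of the CDK inhibitors was -0.0666, and -0.0088 with probe sets of several symbols, which adds *Cdkn1a*. It was 0.0489 when genes below the median level were left out, which removes *Cdkn2a* and *Cdkn2b*. The other role medians moved by less than their spread. Members below 0 numbered 47 of 58 under equal medians, quantile normalization and loess, and 48 with the brightest probe set. The share of replication promoters with E2F letters was 42.9% with the longer words and 21.4% with GGCGGGA, a choice made after seeing the data. For mitosis promoters the share was 0 with the longer words and 33.3% with GGCGGGA. Among all promoters, 2.26% hold a longer word and 11.3% GGCGGGA.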
